A study of Homo sapiens with 12 samples.

Results

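ETV1, ETV4, ETV5, ETS1, ETS2 and ELK3 encode transcription factors of the ETS family that act downstream of fibroblast growth factor (FGF). They were taken by gene name from the deposited tables of the study, where they are 6 of 60617 genes in the TPM table. All but ETS2 are also among the 58575 usable genes of the count table. RNA-Seq was measured in 201B7, an established human iPSC line, in 12 libraries, 3 for each of 4 culture conditions, all harvested on Day 5. Cond 1 was the control, in StemFit medium. Cond 2, called low nutrient, received StemFit that had been heated (56 °C, 30 min). Cond 3, called differentiation, received DMEM with 10% FBS, NEAA and GlutaMax. The paper has heated medium acting from Day 2 and speaks of stimulation by FBS on Day 4. The altered media may thus also differ in length of exposure, which a contrast of Cond 3 with Cond 2 cannot separate from the medium. Cond 4, called physical stimulus, was passaged with 20 strokes of the pipette and otherwise treated like the control. All groups came from this line, and the labels name no genetic change. The design places the conditions side by side in 6-well plates and was run in triplicate, while the paper calls the replicates technical. Which plates gave the RNA libraries is not stated, so that p-values measure only the spread between these cultures.

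FGF ligands bind receptor tyrosine kinases and switch on the RAS, RAF, MEK and ERK kinases. ERK phosphorylates ETS proteins, which all carry the same kind of DNA-binding domain, and it also releases genes that the repressor capicua (CIC) holds down. ETV1, ETV4 and ETV5 form the PEA3 group, whose transcripts are a classical readout of FGF signalling and among the best known targets of CIC. ETS1 and ETS2 are a related pair that ERK activates directly. ELK3 is a ternary complex factor, which binds DNA together with the serum response factor SRF. FGF2 is a standard component of human pluripotent stem cell culture, where FGF and ERK signalling helps to maintain the primed state.

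In GRCh38 the 6 genes lie on 6 chromosomes. ETV1 (ENSG00000006468) is at chr7:13891229-13991425, ETV4 (ENSG00000175832) at chr17:43527844-43579620, ETV5 (ENSG00000244405) at chr3:186046314-186110318 and ETS1 (ENSG00000134954) at chr11:128458761-128587558, all on the minus strand. ETS2 (ENSG00000157557) is at chr21:38805183-38824955 and ELK3 (ENSG00000111145) at chr12:96194375-96269824, both on the plus strand. All values below are for whole genes, summed over their annotated exons. Between 0.163% (ETV1) and 5.26% (ETS1) of the 31-base words of their exons occur elsewhere in the assembly, and 3.49% of the ETS1 words recur on alternate haplotype sequences. ETV4 overlaps DHX8, a gene on the opposite strand with 1103 to 2053 counts per library. The strand setting of the counting is not given in the sources used here, so that the assignment of reads in the overlap is not known.

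Of the RefSeq promoter windows (250 bases before to 50 after a start site, GRCh38.p14), entries were found for 3 of the 6 genes, namely ETV1 with 6 windows, ETS2 with 2 and ELK3 with 2. The windows were searched on both strands for the octamers TGAATGAA, TGAATGGA, TCAATGAA and TCAATGGA, the letters that CIC is known to bind. One of the 6 ETV1 windows held an octamer, and the windows of ETS2 and ELK3 held none. It is shown in capitals because the PEA3 genes are known CIC targets. The match starts 125 bases before the start site, in the stretch chr7:13991517-13991576, which is printed along the minus strand and overlaps no annotated exon.

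ETV1 promoter: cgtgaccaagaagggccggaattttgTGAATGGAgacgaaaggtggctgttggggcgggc

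Among all 35116 windows of the same length, 3.77% held at least 1 of the 4 octamers, and 1.03% held TGAATGGA. The match describes the letters in this window, and binding was not measured. Among the genes known to respond to ERK, which are described further on, 11 of 17 had a window, and an octamer was found for DUSP6 and SPRED3. Counted by window, as the background is, 2 of 17 windows of these genes and 1 of 10 windows of the members held an octamer. These counts are small, and a difference from the background was not tested.

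Total counts per library were between 16441148 and 21871503. Tests on counts used edgeR's quasi-likelihood test in 17747 genes, and "called" means an adjusted p under 0.05 (Benjamini-Hochberg over all genes tested). ETS2, which has no count row, was tested with limma on log2(TPM + 1) in 14253 genes, a scale that understates the fold of low genes. TPM is a level per gene length, brought to a common total per library, so that levels of different genes can be compared on it. The split of calls into higher and lower depended on the scale: 1911 higher and 1790 lower genes in Cond 2 against Cond 1 from edgeR became 2677 and 1056 with limma, and 3366 and 3411 in Cond 3 against Cond 2 became 2252 and 3709. The median log2 fold change (log2FC) of all genes in limma was 0.08 in Cond 2 against Cond 1 and -0.07 in Cond 3 against Cond 2, and 0.01 in size or less in edgeR. In bulk RNA, fewer cells of a type and less RNA per cell cannot be told apart.

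All 6 factors were expressed in control cells. By mean TPM in Cond 1, ETV4 was the most abundant with 119.6 ± 13.5 (SD, n = 3), followed by ETS2 with 36.0 ± 0.936, ETV5 with 32.7 ± 5.45, ETV1 with 26.6 ± 1.30, ETS1 with 25.9 ± 1.32 and ELK3 with 9.47 ± 0.647. In Cond 3 the order was different. There ETV4 (32.3 ± 2.06) and ETS2 (31.4 ± 0.883) stood side by side, ETS1 (22.3 ± 3.04), ETV1 (22.1 ± 3.34) and ELK3 (18.8 ± 1.04) followed, and ETV5 was last with 2.25 ± 0.769. The lowest read count behind any of these values was 57, for ETV5 in Cond 3, against 759 to 1228 reads for ETV5 in Cond 1.

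**Figure D1:**
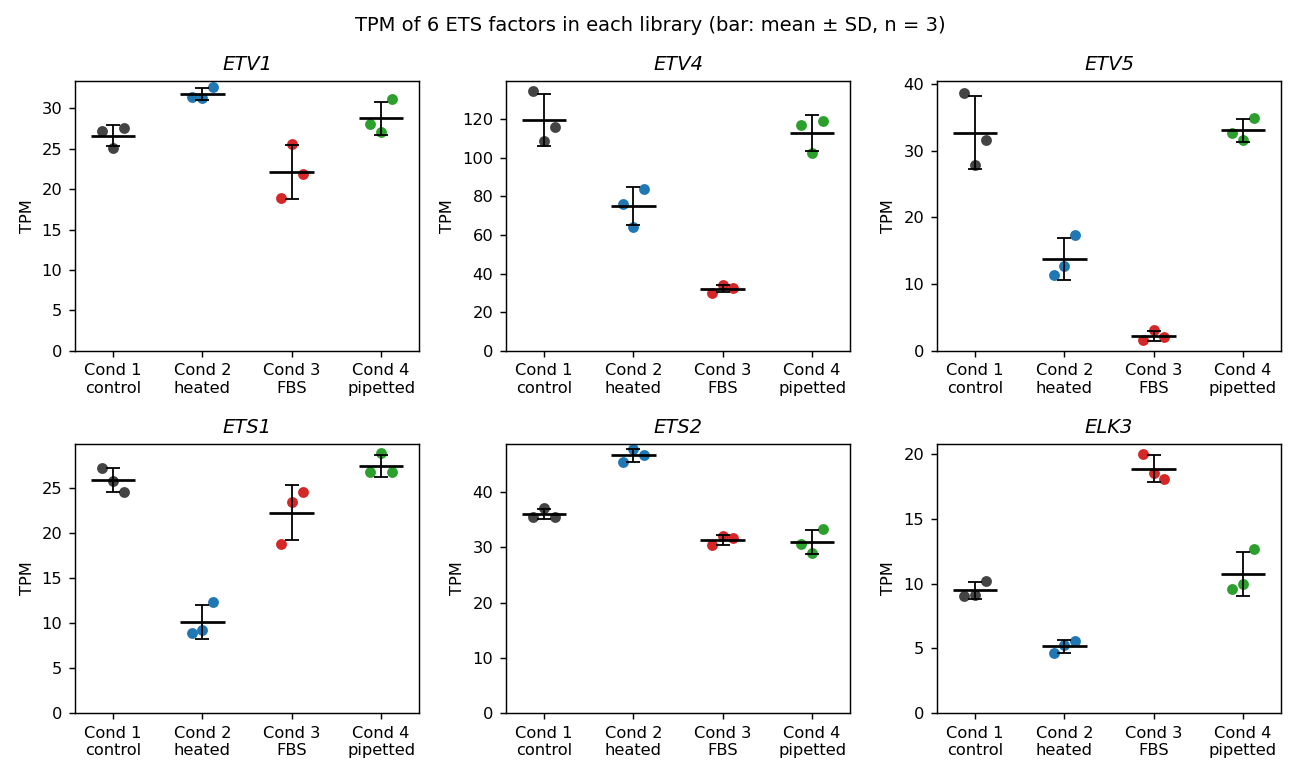
TPM of the 6 factors in each of the 12 libraries (points, y axis in TPM from 0, a panel per gene), by condition on the x axis, with the mean and SD of 3 libraries. ETV4 and ETV5 are lower in Cond 2 and lowest in Cond 3, ETS1 is lowest in Cond 2, and ELK3 is lowest in Cond 2 and highest in Cond 3.

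ETV5, the PEA3 member with the largest change, was measured at 38.6, 27.9 and 31.7 TPM in the libraries of Cond 1 and at 11.3, 12.6 and 17.3 TPM in Cond 2. In Cond 3 it was at 1.61, 3.10 and 2.02 TPM, and in Cond 4 at 32.7, 31.6 and 34.9 TPM. Every value of Cond 3 was under every value of Cond 2, every value of Cond 2 was under every value of Cond 1, and Cond 1 and Cond 4 overlapped. ETV5 was 2.53-fold lower in Cond 2 than in Cond 1 (log2FC -1.34, SE 0.145, adjusted p = 3.00e-07 from edgeR) and 14.9-fold lower in Cond 3 (log2FC -3.90, SE 0.178, 95% interval -4.27 to -3.53, adjusted p = 1.38e-13 from edgeR). Among all genes tested in Cond 3, its log2FC was number 20 from the lowest.

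ETV4, the most abundant of the 6 on average in each condition, had 135, 108 and 116 TPM in Cond 1 and 76.3, 64.3 and 84.0 TPM in Cond 2. It had 30.1, 34.2 and 32.4 TPM in Cond 3, and 117, 102 and 119 TPM in Cond 4. As for ETV5, Cond 3 lay below Cond 2 and Cond 2 below both remaining conditions without overlap. The log2FC against Cond 1 was -0.76 in Cond 2 (SE 0.0918, adjusted p = 1.33e-06 from edgeR) and -1.92 in Cond 3 (SE 0.0970, adjusted p = 6.22e-13 from edgeR), the second of which is a 3.78-fold lower level. Between the altered media, ETV4 was 2.23-fold and ETV5 5.90-fold lower in Cond 3 than in Cond 2 (adjusted p = 3.04e-09 and 2.41e-10 from edgeR).

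ETV1, the remaining PEA3 member, moved little. Its TPM values were 27.1, 25.1 and 27.6 in Cond 1, 31.4, 31.2 and 32.7 in Cond 2, 18.9, 25.6 and 21.8 in Cond 3, and 28.1, 27.1 and 31.1 in Cond 4. The 3 libraries of Cond 2 lay above all others, while those of Cond 3 overlapped Cond 1. In Cond 2 the log2FC against Cond 1 was 0.17 (SE 0.0861, 95% interval -0.01 to 0.35, adjusted p = 0.188 from edgeR), which is not called. ETV1 was lower in Cond 3 than in Cond 1 by a log2FC of -0.30 (SE 0.0871, adjusted p = 0.00916 from edgeR), and this call ended without replicate 1 of Cond 3, its lowest library (log2FC -0.19, adjusted p = 0.0885). Cond 3 was lower than Cond 2 with a log2FC of -0.47 (adjusted p = 0.000172 from edgeR).

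The makeup of the PEA3 group differed between the media. Summed over ETV1, ETV4 and ETV5, the level was 179 ± 19.7 TPM in Cond 1, 120.4 ± 13.0 in Cond 2, 56.6 ± 6.14 in Cond 3 and 174.6 ± 12.4 in Cond 4 (SD, n = 3). ETV5 made up 18.2 ± 1.02% of this sum in Cond 1, 11.4 ± 1.72% in Cond 2 and 3.90 ± 0.912% in Cond 3. For ETV1 the share was 15.0 ± 1.22%, 26.5 ± 2.25% and 38.9 ± 1.66%, respectively. Both shares separated Cond 1, Cond 2 and Cond 3 with no overlap of libraries. Each such difference had p = 0.1 in an exact two-sided permutation test, the smallest that 3 against 3 libraries allow, so this design cannot pass 0.05 for a single value. In Cond 4 the share of ETV5 was 19.0 ± 0.645% and overlapped Cond 1, whereas the share of ETV1, at 16.5 ± 0.598%, lay just above that of Cond 1 in all libraries (15.8 to 16.8% against 13.6 to 15.7%, exact permutation p = 0.1). The share of ETV4 in Cond 4, at 64.6 ± 1.18%, lay below that of Cond 1 in all libraries (exact permutation p = 0.1).

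**Figure D2:**
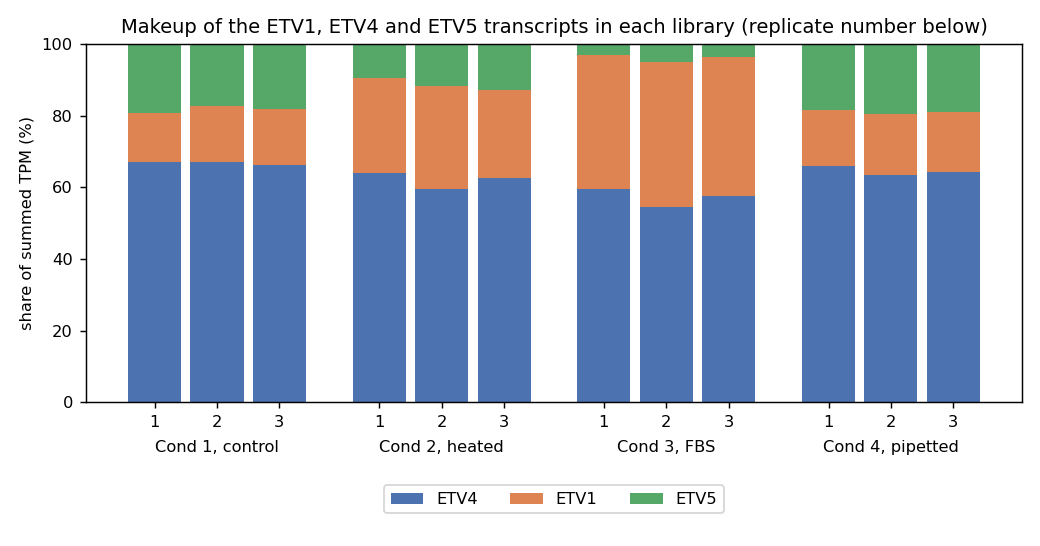
Share of ETV4, ETV1 and ETV5 in their summed TPM (y axis, percent, bars stacked to the whole) in each of 12 libraries, with the replicate number on the x axis. The ETV5 share is 18.2% on average in Cond 1 and 3.90% in Cond 3, and the ETV1 share is 15.0% and 38.9%.

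ETV5 stood further from the control than ETV4 in both altered media. The log2 ratio of ETV5 to ETV4, taken within each library from TPM, was -1.88 ± 0.0804 in Cond 1, -2.46 ± 0.255 in Cond 2, -3.90 ± 0.390 in Cond 3 and -1.77 ± 0.0746 in Cond 4 (SD, n = 3). All ratios of Cond 2 and Cond 3 were below those of Cond 1, and both media did not overlap each other (exact permutation p = 0.1 for each difference). Cond 4 overlapped Cond 1 (exact permutation p = 0.2).

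ETS1, known for roles in blood, vessels and cell migration, had the opposite order of the altered media. It was at 27.3, 25.8 and 24.7 TPM in Cond 1, at 8.89, 9.28 and 12.4 TPM in Cond 2, at 18.9, 23.5 and 24.6 TPM in Cond 3 and at 26.8, 28.9 and 26.8 TPM in Cond 4. Cond 2 lay below all other libraries, and Cond 3 lay just below Cond 1. ETS1 was 2.71-fold lower in Cond 2 than in Cond 1 (log2FC -1.44, SE 0.111, adjusted p = 1.43e-09 from edgeR), beside the 2.53-fold of ETV5. In Cond 3 the log2FC was -0.25 (SE 0.105, 95% interval -0.46 to -0.03, adjusted p = 0.0689 from edgeR), not called, although it passed the threshold without replicate 3 of Cond 3 (-0.32, adjusted p = 0.0385). Between the altered media, the level of ETS1 was 2.29-fold higher in Cond 3 (adjusted p = 1.54e-08 from edgeR).

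ETS2, the close relative of ETS1, went the other way in heated medium. Its TPM values were 35.5, 37.1 and 35.5 in Cond 1, 45.4, 47.8 and 46.6 in Cond 2, 30.4, 32.0 and 31.8 in Cond 3, and 30.7, 28.9 and 33.3 in Cond 4. Cond 2 lay above all other libraries, and Cond 3 and Cond 4 lay below Cond 1. In Cond 2 ETS2 was higher with a log2FC of 0.36 (SE 0.0621, adjusted p = 0.00101 from limma). In Cond 3 it was lower by a log2FC of -0.19 (adjusted p = 0.0259 from limma), a call that ended without replicate 1 or 3 of Cond 3 or replicate 1 or 2 of Cond 1, with adjusted p between 0.0503 and 0.0859. Against Cond 2, Cond 3 had a log2FC of -0.56 (adjusted p = 2.09e-05 from limma). Whole reads recovered from the TPM values gave ETS2 between 722 and 1358 reads per library, and edgeR on them made the same calls (adjusted p = 0.00585 in Cond 2 and 0.0161 in Cond 3).

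ELK3, which is known to repress serum response factor targets until ERK phosphorylates it, was the member that rose in Cond 3. It had 9.07, 9.12 and 10.2 TPM in Cond 1, 4.64, 5.28 and 5.59 TPM in Cond 2, 20.0, 18.5 and 18.0 TPM in Cond 3 and 9.60, 9.94 and 12.7 TPM in Cond 4. Cond 2 lay below and Cond 3 above all other libraries, and Cond 1 and Cond 4 overlapped. ELK3 was 1.95-fold lower in Cond 2 (log2FC -0.96, SE 0.135, adjusted p = 1.12e-05 from edgeR) and 1.95-fold higher in Cond 3 (log2FC 0.96, SE 0.124, adjusted p = 1.69e-06 from edgeR) than in Cond 1. The distance between both altered media was 3.80-fold (log2FC 1.92, adjusted p = 9.68e-11 from edgeR).

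Counted over the 5 members with a count row, 4 were lower in Cond 2 than in Cond 1 and none was higher, where 20.9% of all genes tested were called (10.8% higher, 10.1% lower). In Cond 3 against Cond 1, 3 were lower and 1 was higher, where 38.4% of all genes were called (19.5% higher, 18.8% lower). In Cond 3 against Cond 2 all 5 were called, 3 lower and 2 higher, where 38.2% of all genes were called (19.0% higher, 19.2% lower). With a fold change above 2 in addition, the calls were ETV5 and ETS1 in Cond 2 and ETV4 and ETV5 in Cond 3, where 4.34% and 8.16% of all genes passed. The median log2FC of the 5 members was -0.96 in Cond 2 and -0.30 in Cond 3, beside 0.00018 and -0.0064 over all genes tested. The background of limma, which tested ETS2, was 26.2% for Cond 2 and 39.9% for Cond 3, each against Cond 1, and 41.8% for Cond 3 against Cond 2. TPM values of both conditions without overlap were common, at 35.7% of the genes of the count test in Cond 2 against Cond 1, 48.6% in Cond 3 against Cond 1 and 47.6% in Cond 3 against Cond 2. Both comparisons share the Cond 1 libraries, so that their values are given side by side and not as separate evidence. The members and the gene lists that follow were chosen with earlier results of these data known. Their shares of calls beside those of all genes are therefore descriptive.

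**Figure D3:**
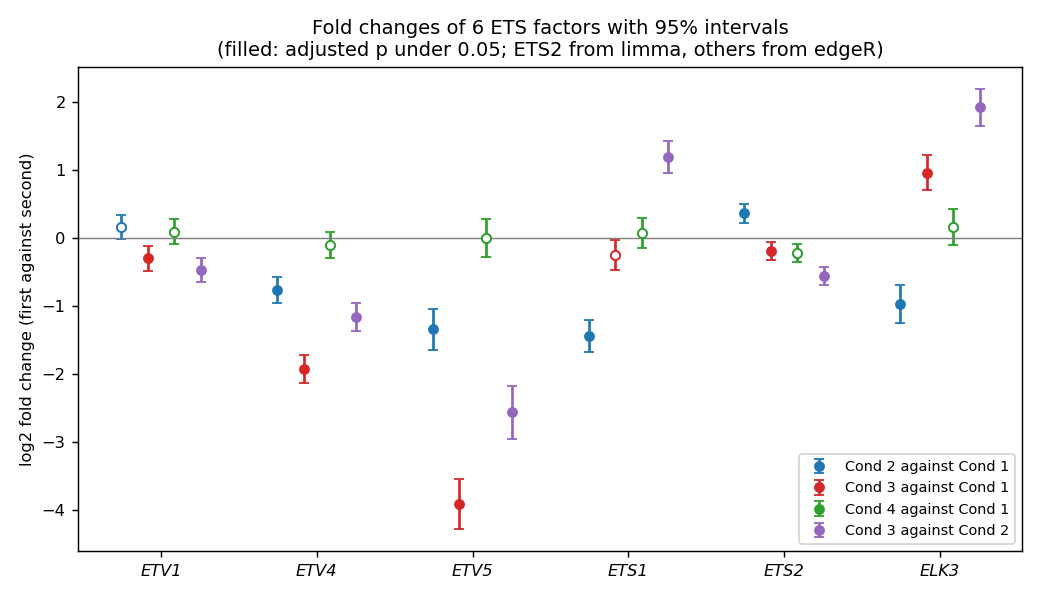
Log2FC (y axis) of the 6 factors in 4 comparisons, with 95% intervals, from edgeR for 5 genes and from limma on log2(TPM + 1) for ETS2. Filled points have an adjusted p under 0.05: ETV5 reaches -3.90 in Cond 3, ETS1 -1.44 in Cond 2, and all 6 points of Cond 4 against Cond 1 are open.

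No factor was called after pipetting. In Cond 4 against Cond 1, 0 of 5 members passed in edgeR, where 0.0282% of all genes were called, and none of the 5 had an unadjusted p under 0.05 there or a call in DESeq2 or limma. The log2FCs were 0.10 (95% interval -0.08 to 0.28) for ETV1, -0.10 (-0.28 to 0.09) for ETV4, 0.07 (-0.14 to 0.29) for ETS1 and 0.17 (-0.10 to 0.43) for ELK3. For ETV5 the value was 0.0023 (-0.28 to 0.29), whose sign changed when single libraries were left out. These intervals are the sizes of change that remain possible at this depth. ETS2 had the lowest unadjusted p, 0.00463 from limma, with a log2FC of -0.21 and all libraries of Cond 4 below those of Cond 1. Its adjusted p was 0.614, where 0.0210% of all genes were called in limma, and 11.9% of the genes of the count test had TPM values without overlap in this comparison.

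Ordered by mean TPM, no pattern was shared by all 6 factors. ETV4 and ETV5 had the order Cond 3, Cond 2, then Cond 1 and Cond 4, which overlapped. ETV1 ran from Cond 3 over Cond 1 and Cond 4 to Cond 2, and its first 3 positions overlapped with their neighbours. ETS1 ran from Cond 2 over Cond 3 to Cond 1 and Cond 4, and ELK3 from Cond 2 over Cond 1 and Cond 4 to Cond 3, with overlap only between Cond 1 and Cond 4 in both. ETS2 ran from Cond 4 and Cond 3, which overlapped, over Cond 1 to Cond 2. Across the 12 libraries, Pearson's r of log2 CPM was 0.990 between ETV4 and ETV5, 0.691 between ETV1 and ETV4, and -0.811 between ETS1 and ETS2. These values describe 4 conditions more than 12 independent points.

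The genes most like each factor were taken by the same r among 15696 genes with a mean TPM of at least 1. For ETV5 they were SPRY4 (0.997), a feedback inhibitor of receptor tyrosine kinase signalling, the lncRNA AC006329.1 (0.994) and the transcription factor NFE2L3 (0.994). ETV4 was most like FUT1 (0.993), a fucosyltransferase, NFE2L3 (0.993) and SPRY4 (0.990). The mean TPM of SPRY4 was 82.5 in Cond 1, 45.9 in Cond 2, 16.3 in Cond 3 and 82.4 in Cond 4. ETS1 was most like S100A11 (0.982), a calcium-binding protein, the kinase JAK1 (0.981) and the lncRNA LINC00678 (0.978), and ELK3 was like BCL11A (0.983) and ANTXR1 (0.979). The nearest genes of ETS2 were TMEM88 (0.948), STPG1 (0.929) and TMEM109 (0.922), and those of ETV1 were ATP6AP1L (0.944), CDC123 (0.930) and ARMC4 (0.929). The values of r are descriptive, and the libraries of a condition share their medium.

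Genes known to respond to ERK were examined as a list of 17, of which 16 were tested and IER3 was listed at 0 TPM. In Cond 3 against Cond 1, 13 of 16 were lower and none was higher, where 38.4% of all genes were called (18.8% lower), with a median log2FC of -1.02. The lowest were DUSP6, a phosphatase that inactivates ERK, with -5.29 (SE 0.175), SPRY4 with -2.37 (SE 0.0959), DUSP4 with -1.93 (SE 0.169) and MYC with -1.65 (SE 0.115). Their adjusted p were 7.12e-16, 1.96e-14, 5.89e-09 and 1.46e-10 from edgeR. The 3 that were not called were SPRED2 (0.06), FOS (0.02) and the cyclin CCND1 (-0.11, adjusted p = 0.0941 from edgeR). These 13 calls held under every alternative fit at the same threshold. Since the list was chosen with earlier results of these data known, its share of calls is descriptive.

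In Cond 2 against Cond 1 the same list was split. It held 6 lower and 3 higher genes of 16, where 20.9% of all genes were called, with a median log2FC of -0.15. Of these 9 calls, 6 held under every alternative fit. DUSP6 was lower by a log2FC of -1.11, SPRY4 by -0.94, MYC by -0.63 and SPRY1 by -0.53, with adjusted p of 3.84e-07, 4.11e-08, 0.000168 and 0.000716 from edgeR. DUSP4 was higher by 0.53 (adjusted p = 0.0109 from edgeR) and CCND1 by 0.22 (adjusted p = 0.00292 from edgeR). The call of DUSP4 ended without replicate 1 of Cond 2 and with limma on log2(TPM + 0.1). The calls of PHLDA1 (0.25, adjusted p = 0.0472 from edgeR) and SPRED2 (-0.28, adjusted p = 0.0497 from edgeR) each ended in 7 of 14 alternatives, both without replicate 1 or 3 of Cond 1 or replicate 2 of Cond 2, and PHLDA1 also without replicate 3 of Cond 2. EGR1, an immediate early gene, had 0.43 and was not called (adjusted p = 0.127 from edgeR). In Cond 3 against Cond 2, 14 were lower and 1, SPRED2, was higher, where 38.2% of all genes were called. In Cond 4 against Cond 1 none of the 16 was called by edgeR, DESeq2 or limma, and 1 (FOS) was called by edgeR with no filter on low counts.

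**Figure D4:**
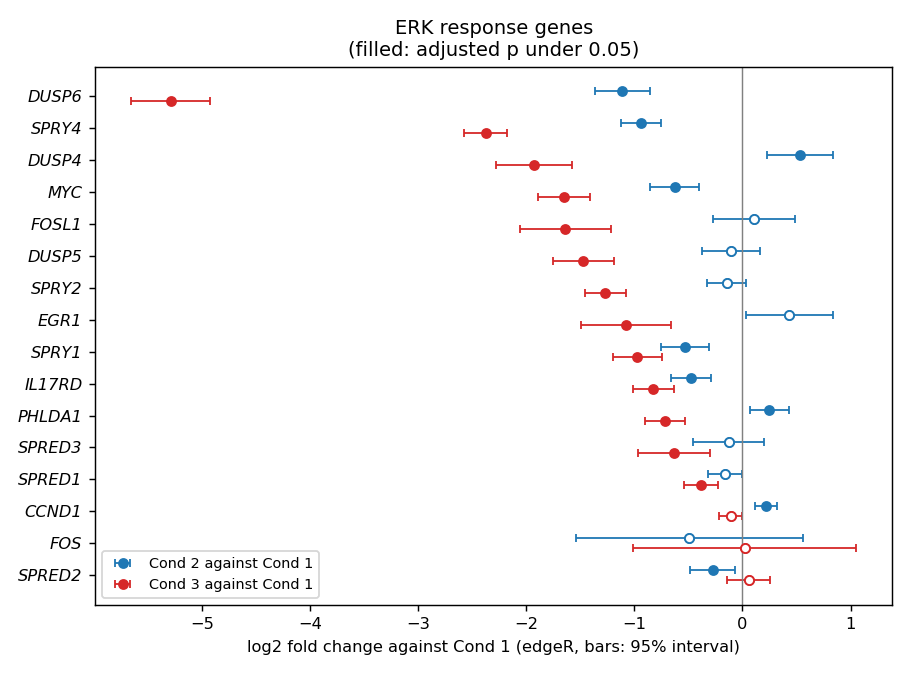
Log2FC against Cond 1 (x axis, bars are 95% intervals) of 16 ERK response genes in Cond 2 (blue) and Cond 3 (red), from edgeR, with filled points for an adjusted p under 0.05. DUSP6 lies at -5.29 and SPRY4 at -2.37 in Cond 3, and DUSP4 lies above 0 in Cond 2 and below 0 in Cond 3.

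Upstream of the factors, no FGF receptor gene was called lower in Cond 2 or Cond 3. Of 6 receptor and co-receptor genes tested, FGFR1, FGFR2 and FGFR3 were higher in Cond 2, with log2FCs of 0.34, 0.40 and 0.93 (adjusted p = 3.99e-05, 1.56e-05 and 1.97e-08 from edgeR). In Cond 3, 5 of 6 were higher, where 38.4% of all genes were called, led by FGFR3 with 0.46, FGFRL1, a receptor without a kinase, with 0.46, and FGFR1 with 0.25 (adjusted p = 0.000147, 0.000303 and 0.000631 from edgeR). The other calls in Cond 3, FGFR4 with 0.19 and FGFR2 with 0.15 (adjusted p = 0.0340 and 0.0429 from edgeR), ended under 6 and 7 of 14 alternatives. FGFR4 lost its call without any single library of Cond 3 or without replicate 1 or 3 of Cond 1, and FGFR2 without any single library of Cond 1 or without replicate 1 of Cond 3. Of 22 ligand genes, 13 were tested, with 3 higher and 4 lower in Cond 2 and 3 higher and 5 lower in Cond 3, where 20.9% and 38.4% of all genes were called. Under every alternative, 3 of these 7 and 5 of these 8 calls held. The higher ligands in Cond 2, FGF1, FGF4 and FGF8, and the lower FGF21 lost their calls in 4 to 7 alternatives each, and FGF4, FGF8 and FGF9 in Cond 3 in 1 to 4. In Cond 3 FGF1 had a log2FC of 1.74 and FGF21 one of -3.01 (adjusted p = 0.000434 and 1.35e-07 from edgeR). These calls of FGF1 and FGF21 held under every alternative that gave them a value, 13 for each, where FGF2 had 14. The levels of FGF1 and FGF21 are not given here. FGF2, the most abundant ligand with 147 ± 4.29 TPM in Cond 1, was lower in both media, by log2FCs of -0.27 and -0.41 (adjusted p = 0.000634 and 1.92e-06 from edgeR). FGF19 was lower by -1.42 in Cond 2 and -2.36 in Cond 3 (adjusted p = 0.000139 and 2.05e-07 from edgeR), and FGF13, which acts inside the cell, by -1.03 and -1.09 (adjusted p = 9.33e-10 and 2.05e-10 from edgeR).

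Of 19 tested kinases and adaptors of the ERK cascade, 5 were higher and 1 lower in Cond 2, and 3 were higher and 5 lower in Cond 3. These are 31.6% and 42.1% of the list, beside 20.9% and 38.4% of all genes, and 4 of the 6 and 4 of the 8 calls held under every alternative. NRAS, a RAS protein, was the least stable, with -0.16 in Cond 3 (adjusted p = 0.0308 from edgeR) and its call lost in 9 of 14 alternatives, among them any single library of Cond 1 and replicates 2 and 3 of Cond 3. The adaptor SHC1 was lower in both, with log2FCs of -0.41 and -0.72 (adjusted p = 1.29e-05 and 1.99e-09 from edgeR). FRS2, the adaptor that links FGF receptors to RAS, was higher in Cond 2 by 0.67 (adjusted p = 7.35e-06 from edgeR) and had 0.03 in Cond 3 (adjusted p = 0.822 from edgeR). In Cond 3 the kinase BRAF had a log2FC of -0.43 (adjusted p = 0.000166 from edgeR). The ERK kinase gene MAPK3 was not called by edgeR in either medium (0.13 in both, adjusted p = 0.165 and 0.0989), while limma on log2(TPM + 1) called it higher in both. RNA levels do not give the phosphorylation of these kinases, which was not measured in these libraries.

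Among 7 tested regulators of ETS factors, CIC, the repressor of the PEA3 genes, had 29.9 TPM in Cond 1 and 44.0 TPM in Cond 3 on average. It was higher in Cond 3 by a log2FC of 0.53 (SE 0.0806, adjusted p = 1.69e-05 from edgeR). In Cond 2 CIC was higher by 0.25 (adjusted p = 0.0297 from edgeR), a call that ended without replicate 1 of Cond 2 or replicate 1 or 2 of Cond 1. SRF, the partner of ELK3, was higher in Cond 2 by 0.30 and lower in Cond 3 by -0.45 (adjusted p = 0.000328 and 1.11e-06 from edgeR), the reverse of the signs of ELK3. COP1, a ubiquitin ligase that acts on PEA3 proteins, was not called (-0.01 and -0.16, adjusted p = 0.953 and 0.0863 from edgeR). In all, 4 were higher and 1 lower in Cond 2, where 20.9% of all genes were called, but only 1 of these 5 calls, that of SRF, held under every alternative. In Cond 3, 1 was higher and 1 lower, or 28.6% of the list beside 38.4% of all genes, and both calls held.

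The other ETS family genes were a list of 22. Of 14 tested, 2 were higher and none lower in Cond 2, and 5 were higher and 1 lower in Cond 3, with median log2FCs of 0.10 and 0.20. These are 14.3% and 42.9% of the list, beside 20.9% and 38.4% of all genes. ELK4, a ternary complex factor like ELK3, was the lower one in Cond 3, with -1.27 (SE 0.0843, adjusted p = 6.79e-11 from edgeR), from 21.9 ± 1.79 TPM in Cond 1 to 9.25 ± 0.953 TPM (SD, n = 3). The epithelial factor ELF3 was higher by 1.46 (SE 0.162, adjusted p = 2.17e-07 from edgeR), ELF4 by 1.31 (SE 0.148, adjusted p = 2.87e-07 from edgeR), ELF1 by 0.51 and SPIB by 1.14 (adjusted p = 0.00184 and 0.00900 from edgeR). The fifth, ELK1, was higher by 0.22 (adjusted p = 0.0433 from edgeR), which any of 5 single libraries ended when left out. Of the 6 calls in Cond 3, 4 held under every alternative, so that ELK1 was not the only one to lose its call. In Cond 2 the calls were ETV3 (0.32, adjusted p = 0.00212 from edgeR) and ELF4 (0.52, adjusted p = 0.0161 from edgeR), the latter ended without replicate 2 of Cond 2 or replicate 1 or 2 of Cond 1. GABPA, the DNA-binding subunit of an ETS factor that acts on many housekeeping genes, has no count row and was tested with limma like ETS2. It was higher in Cond 2 by 0.49 and in Cond 3 by 0.34 (adjusted p = 0.00342 and 0.0175 from limma), with 20.1 ± 1.75 TPM in Cond 1, 28.6 ± 2.44 in Cond 2 and 25.7 ± 2.15 in Cond 3 (SD, n = 3). Its call in Cond 3 ended without replicate 2 of Cond 1 or replicate 3 of Cond 3 (adjusted p = 0.0690 and 0.0755 from limma). ERF, an ETS repressor that ERK moves out of the nucleus, was the most abundant with 108 ± 8.92 TPM in Cond 1 and was not called in either medium by edgeR (adjusted p = 0.196 and 0.496).

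**Figure D5:**
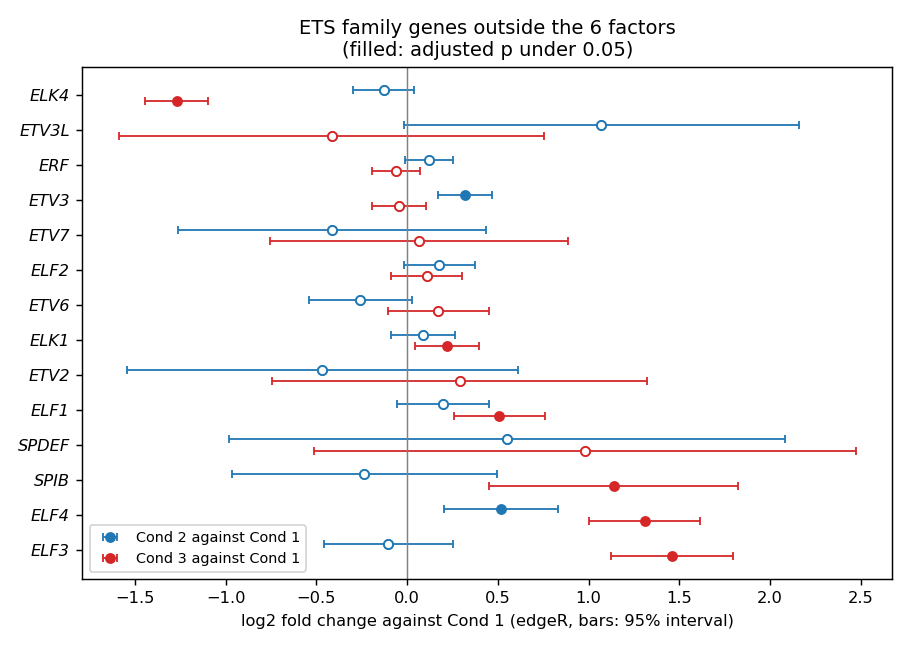
Log2FC against Cond 1 (x axis, bars are 95% intervals) of 14 ETS family genes outside the 6 factors in Cond 2 (blue) and Cond 3 (red), from edgeR, with filled points for an adjusted p under 0.05. ELK4 lies at -1.27 and ELF3 at 1.46 in Cond 3, and 2 points of Cond 2 are filled.

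ELK3 and ELK4 exchanged places between the media. The log2 ratio of ELK3 to ELK4 TPM was -1.21 ± 0.108 in Cond 1, -2.04 ± 0.20 in Cond 2, 1.03 ± 0.0856 in Cond 3 and -1.10 ± 0.245 in Cond 4 (SD, n = 3). Cond 2 and Cond 3 lay on either side of Cond 1 without overlap (exact permutation p = 0.1 for each), and Cond 4 overlapped it (exact permutation p = 0.7). As a share of the TPM of all 28 ETS genes, the 6 factors made up 46.6 ± 1.89% in Cond 1, 35.3 ± 1.36% in Cond 2, 29.1 ± 1.85% in Cond 3 and 45.2 ± 1.65% in Cond 4. This sum is weighted toward ETV4, with mean TPM of 119.6 in Cond 1, 74.9 in Cond 2 and 32.3 in Cond 3. Not all members fell, since ETS2 was higher in Cond 2 and ELK3 in Cond 3 than in Cond 1. Summed over the 28 genes, the level was 536 ± 22.9 TPM in Cond 1, 517 ± 21.2 in Cond 2 and 444 ± 5.93 in Cond 3, where Cond 2 overlapped Cond 1 (exact permutation p = 0.4) and Cond 3 lay below it (exact permutation p = 0.1).

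Markers of cell types are given beside these groups. Pluripotency markers, 11 in all and all tested, summed to 9204 to 9485 TPM in Cond 1, 7937 to 9103 TPM in Cond 2 and 9104 to 9836 TPM in Cond 3. All 11 had a mean of at least 1 TPM in Cond 1 and Cond 3, and 10 had it in Cond 2. The paper lists low RNA-Seq values for POU5F1 (OCT4), which is on this list, so the sum says little about it. Of them 3 were higher and 5 lower in Cond 2, and 4 were higher and 5 lower in Cond 3. Of all genes tested, 20.9% and 38.4% were called in these comparisons, and the same shares stand beside the marker counts that follow. NANOG, a core pluripotency factor, was lower in both, with log2FCs of -1.09 and -2.16 (adjusted p = 6.43e-10 and 1.40e-14 from edgeR). Beside the changes in Cond 2, 6 of 7 tested neuroectoderm markers were higher, and the sum of all 8 was 568 to 914 TPM against 27.4 to 41.3 TPM in Cond 1. Of 6 tested surface ectoderm markers 5 were higher and 1, the keratin KRT18, was lower, and the sum of all 8 was 284 to 322 TPM against 350 to 417 TPM in Cond 1. In Cond 3 the neuroectoderm sum was 114 to 148 TPM, with 3 higher and 1 lower of 7 tested. The mesenchyme sum of 8 genes was 428 to 464 TPM there, against 243 to 270 TPM in Cond 1. Of 5 tested mesenchyme markers 2 were higher, or 40% beside 38.4% of all genes. The surface ectoderm sum in Cond 3 was 206 to 225 TPM, with 2 higher and 1 lower of 6 tested, and KRT18 was the lower one there too. COL1A1 alone had 246 TPM in Cond 1 and 436 TPM in Cond 3 on average, while PRRX1 and DCN of that list were under 0.1 TPM in all libraries. Their part in the changes of the ETS factors was not tested.

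For ETS1, whose roles in blood and vessels are well known, the markers of those cells are given beside it. The endothelial sum of 7 genes was 84.0 to 98.7 TPM in Cond 1 and 63.1 to 70.2 TPM in Cond 2, where KDR and TIE1 were lower and TEK and VWF higher. CDH5 and PECAM1, which define endothelium, had means of at most 0.15 and 0.29 TPM. The neural crest sum of 6 genes was 53.3 to 61.1 TPM in Cond 1 and 27.5 to 31.7 TPM in Cond 2, with TFAP2A higher and FOXD3 lower among 4 tested. Of 5 tested endothelial and 4 tested neural crest genes, 80% and 50% were called in Cond 2, beside 20.9% of all genes. The 6 blood markers summed to at most 2.01 TPM per library, and PTPRC and HBG1 were under 0.1 TPM in all of them. FOXD3, a neural crest and pluripotency factor, had a log2FC of -2.08 in Cond 2 (adjusted p = 1.55e-10 from edgeR). The part of these genes in the change of ETS1 was not tested.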

How the data were processed

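RNA-Seq was measured in 12 libraries of 201B7 iPSCs, 3 for each of 4 conditions, grouped by GEO's labels. Strand-specific libraries of poly(A) RNA were sequenced on an Illumina NovaSeq. Per the methods and the submitters' processing notes, which name bcl2fastq 2.20.0.422, cutadapt 4.1, fastp 0.20.1 and HISAT2 2.1.0, reads were trimmed, aligned to GRCh38 and counted on genes with featureCounts. The authors deposited read counts per gene as whole numbers without normalization, and TPM values, which are the counts per gene length scaled to a fixed total per library. How multi-mapping reads were counted is not given in the sources used here. Of 58580 lines of the count table, 5 could not be read as a gene row and were dropped. ETS2 is among 2042 genes listed with TPM values but not in the usable count rows.

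The quasi-likelihood test of edgeR 4.0.16 (R 4.3.3), with TMM normalization of the counts, was applied in one fit over all libraries, after edgeR's filter on low counts, with Benjamini-Hochberg adjustment over all genes. ETS2 was tested with limma 3.58.1 on log2(TPM + 1) in genes that reached a TPM of 1 in every library. Its whole reads were recovered from the steps of the TPM values (tolerance 0.002 reads). This gave the known counts of 500 of 500 genes and 1165 genes without a count row, with 1 not recovered, and edgeR on 18331 genes then called 1907 higher and 1906 lower in Cond 2 and 3538 and 3451 in Cond 3. Single ratios were tested by exact two-sided permutation (scipy 1.17.1). Coordinates are those of GENCODE release 44, and promoter windows are from RefSeq. Methods were tested on simulated data. Total counts of 16441148 to 21871503 left the factors between 57 and 2606 reads per library, which limits precision most for ETV5 in Cond 3 and ELK3 in Cond 2.

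The members and gene lists were chosen with earlier results of these data known. The 6 factors were described in every comparison, list genes were named when called (up to the 4 with the lowest adjusted p per list and comparison) or when abundant and not called, and the 3 genes with the highest r were named per factor, but 3 genes that these rules name are not reported here. SPRY1, DUSP4, EGR1, SPRED2, ELK1, GABPA, NANOG, FOXD3 and the genes named for a missed or lost call were chosen after their values were seen. As alternatives, DESeq2 1.42.0, no filter on low counts, upper-quartile normalization, limma with pseudocounts of 1 and 0.1, 6 libraries alone, a replicate block, a fold threshold of 2, each library left out and, added after seeing the data, the recovered reads were run. Same-numbered replicates did not deviate together.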

Additional observations from a re-analysis of the deposited data

How the results depend on the processing

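Over 320 alternative values of the 24 fold changes of the 6 factors, 307 kept direction and side of the threshold. In Cond 3 against Cond 1, ETV1 missed the threshold with limma on log2(TPM + 0.1) (-0.28, adjusted p = 0.0885) and without Cond 3 replicate 1 (-0.19). ETS1 there passed it with no filter on low counts (-0.25, adjusted p = 0.0289), with 6 libraries alone (-0.25, adjusted p = 0.0322) and without Cond 3 replicate 3 (-0.32), while leave-one-out adjusted p ranged from 0.0385 to 0.373. ETS2 there ranged from -0.21 to -0.17 with a library left out (adjusted p 0.0451 to 0.0859). ETV5 in Cond 4 against Cond 1 changed sign with no filter (-0.0018) and, with a library left out, ranged from -0.10 to 0.13, negative without Cond 4 replicate 3, Cond 1 replicate 2 or Cond 1 replicate 3 (-0.04, -0.10 and -0.01). Leaving out a library gave 3 to 5 members called in Cond 3 against Cond 1 (4 with all), and 4, 0 and 5 in the other comparisons, as with all libraries. DESeq2, upper-quartile normalization and no filter gave no value for ETS2, which has no count row.

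A fold change above 2 in addition left 2 members in Cond 2 and 2 in Cond 3 against Cond 1, ERK response genes at 1 in Cond 2 (DUSP6), 8 in Cond 3 and 8 in Cond 3 against Cond 2, and other ETS genes at 0 in Cond 2 and 4 in Cond 3 against Cond 2. By this rule 4.34% of all genes were called in Cond 2 and 8.16% in Cond 3, each against Cond 1. In Cond 3 against Cond 2 it called 1023 genes higher and 534 lower of 17747. With no filter, 1 ERK response gene (FOS) was called in Cond 4. Other ETS genes called in Cond 2 were 1 (ETV3) with 6 libraries alone and 1 to 2 with a library left out (1 without Cond 2 replicate 2, Cond 1 replicate 1 or Cond 1 replicate 2). In Cond 3 against Cond 2 they were 9 of 14, where 38.2% of all genes were called. With limma on log2(TPM + 1), which tested 10 genes of the list, they were 5, where 41.8% of all genes were called. With a library left out they were 5 to 8 (5 without Cond 3 replicate 2 or Cond 2 replicate 1). The cause was not tested. The replicate block gave 4, 4, 0 and 5 members called, as without it, and changed no call of a factor. Deviations of 18 same-numbered pairs had r between -0.0131 and 0.0379, with a median of 0.0162, against a median of -0.00535 for pairs with other numbers. Taken over all tested genes, such small r show no strong pairing, but they cannot exclude a weak one.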
